A study of Arabidopsis thaliana with 26 samples.

Results

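Between the first and the third day of darkness, 4343 of 26676 rows of the deposited table changed in darkened leaves of Arabidopsis thaliana Col-0, 929 of them (3.48%) at least 2-fold, as 348 rises and 581 falls. Each row is 1 probe set, a group of array probes summarised to 1 log2 expression value, so a difference of 1 is a 2-fold difference. The comparison rests on 6 of the 26 arrays of the study: 3 of Col-0 leaves after 3 days of darkening and 3 of Col-0 leaves after 1 day. The remaining groups used here were Col-0 leaves in light (day 0) and after 6 days, and leaves of a PIF5 knockout, called pif5-621 in the study's design, in light and after 1, 3 and 6 days, with 3 arrays each. A pif5 group of day 12 with 2 arrays entered only the estimate of the spread. Plants of both genotypes grew at 22 °C with 8 h of light and 16 h of darkness a day, and 2 fully expanded leaves per plant were enclosed in foil-coated mittens while the rosette stayed in its light cycle. Blades were harvested at noon. The labels give 1 group in light per genotype and no uncovered leaf of the same age at days 1 or 3, so changes in darkness and changes with elapsed time cannot be told apart. Separate plants are not named for the replicates either, and p-values thus reflect how far these arrays of a group differ, a spread that may be technical. In whole blades, a lower value from fewer cells of a type and one from less RNA per cell cannot be told apart.

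A leaf that is covered while the plant stays lit loses photosynthesis but remains attached to a supply of sugars and hormones. It is known to yellow faster than the leaves of a plant that is darkened whole, and to export nitrogen and carbon as its chloroplasts are taken apart. Phytochrome-interacting factors such as PIF5 are transcription factors that light destabilises and that build up in darkness, where they are known to promote leaf yellowing. The comparison of day 3 with day 1 asks which transcript changes begin, go on or turn back after the first day.

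No row is given a gene name. The rows that the platform annotation lists for photosynthesis genes, which are among the most abundant transcripts of a green leaf, had a median level in light at percentile 66.1 of all rows (10 rows of 49 genes). Percentile 90 was required for names to be used. Only the table's own identifiers are given, and the labelled tissue was not checked by marker genes. Correlations between replicates ran between 0.984 and 0.987 for day 3 and between 0.983 and 0.987 for day 1, and those of day 3 with day 1 arrays between 0.949 and 0.963.

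The test of day 3 against day 1 called 1970 rises and 2373 falls, 7.38% and 8.90% of all rows and together 16.3%. A call is an adjusted p under 0.05 in the limma fit over all 9 groups, with Benjamini-Hochberg adjustment over all rows. The median over all rows was a change of 0.01, and 5% of rows lay at or below -0.62 and 5% at or above 0.50. Called rises had a median of 0.57 and called falls of -0.67. The balance of directions depended on the scaling: rises were 45.4% of the calls here, 48.3% with quantile normalization and 57.2% with each array centred on its median, which moved the median of all rows to 0.06. The 3 arrays of day 3 did not overlap with the 3 of day 1 at 7736 rows, 29.0% of all, and 4145 of the 4343 called rows were among them.

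Changes between days 1 and 3 were more often found in brighter rows. With rows split by mean level over all 26 arrays into 4 bins of 6669, 1.57% of the lowest bin were called, 9.06% and 24.0% of the next bins and 30.5% of the highest. The median SD between replicates was between 0.14 and 0.16 in all 4 bins at both days. The first-day change had a like gradient, with 4.63% of the lowest bin called and 65.0% of the highest. The mix of classes described next also moved with level. Of the calls in the lowest bin, 78.1% were new and 2.86% continued, and in the highest bin 28.1% were new and 48.8% continued, whereas reversed changes took 19.0% and 23.2%.

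**Figure D1:**
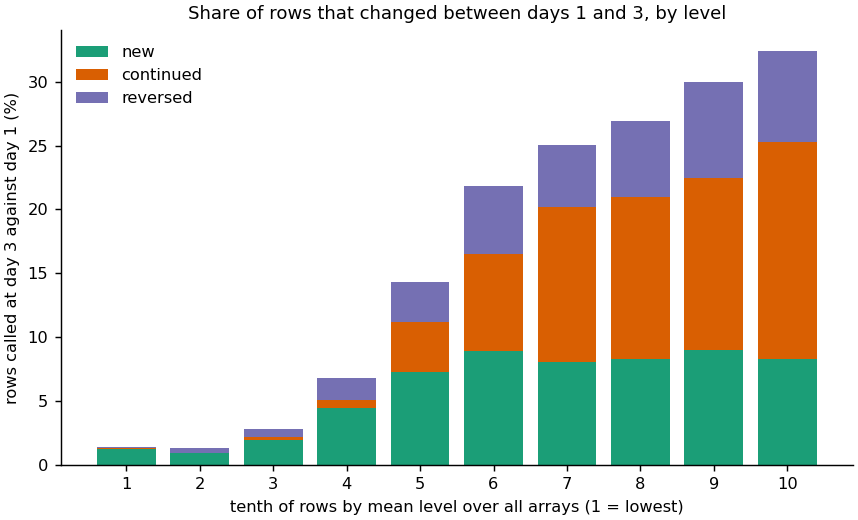
Rows called at day 3 against day 1 in Col-0, as a percentage of each of 10 equal bins of rows ordered by mean level over all arrays, with new, continued and reversed changes stacked. The share is 1.42% in the lowest bin and 32.4% in the highest, and continued changes are 2.63% of the calls in the lowest bin and 52.3% in the highest.

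Each called row was placed by what it had done on the first day, using the test of day 1 against day 0 in the same fit, which called 38.2% of all rows. A change was continued if the row had been called on the first day in the same direction, reversed if called in the opposite direction, and new if not called. Continued changes came to 1807 rows or 41.6% of the calls. New changes came to 1555 rows (35.8%) and reversed changes to 981 (22.6%). Among the 929 changes of at least 2-fold the shares were 46.9% continued, 29.5% new and 23.6% reversed. Both tests use the 3 arrays of day 1, so an error in those arrays enters them with opposite sign and favours reversals. With the first-day change taken from 1 day 1 array and the later change from the remaining 2, reversed changes were 15.2% to 17.3% of the calls, continued changes 35.6% to 39.2% and new changes 45.6% to 47.1%, depending on which array was set apart, so new changes then outnumbered continued ones. They also did so without Col-0 day 1 replicate 3, at 38.1% against 37.2%, and without Col-0 day 0 replicate 2, at 39.4% against 39.3%, and the shares were 38.9% each without Col-0 day 0 replicate 1. With arrays 1, 2 and 3 set apart, rises after a first-day fall numbered 219, 217 and 244, against 369 with all arrays in both tests. Falls after a first-day rise numbered 379, 373 and 358, against 612. Continued rises numbered 561 with array 1 set apart, against 845. A first-day change taken from 1 array is less precise and is called less often, which counts more rows as new. The effect of the shared arrays alone was not tested.

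**Figure D2:**
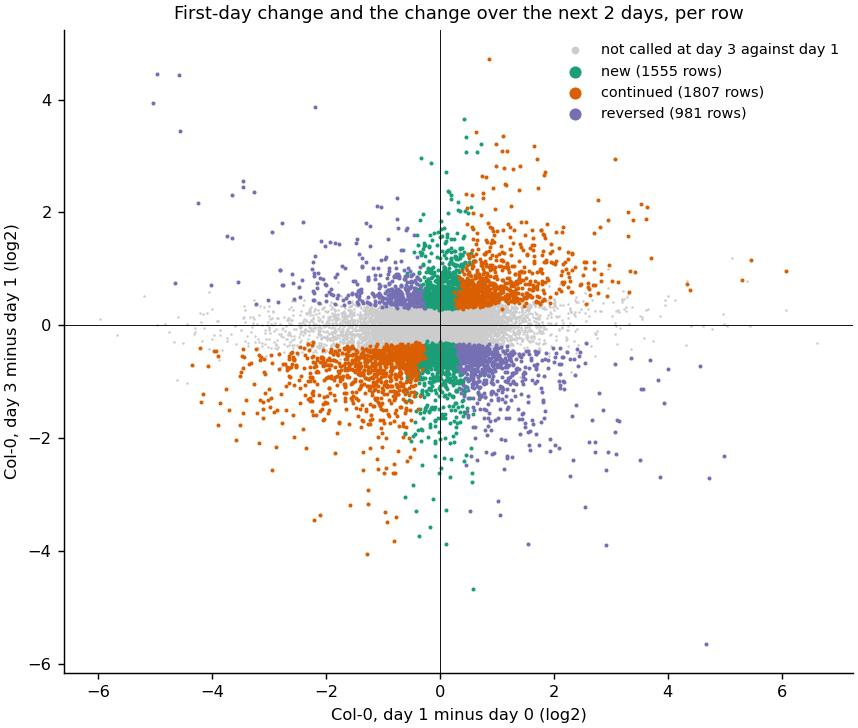
Each point is 1 row of the table in Col-0: the log2 change from day 0 to day 1 on the horizontal axis and the log2 change from day 1 to day 3 on the vertical axis. Coloured points are the 1555 new, 1807 continued and 981 reversed changes, and grey points were not called at day 3 against day 1; the 2 axes share the day 1 arrays.

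Most first-day changes were not followed by a called change. Of 5180 rows that had risen on the first day (19.4% of all rows), 845 (16.3%) rose further by day 3, 612 (11.8%) fell, and 3723 (71.9%) were not called. Over all rows, 7.38% rose and 8.90% fell between these days. First-day calls lay mostly in brighter rows, and in the highest of the 4 level bins 14.3% rose and 16.2% fell. The shares of all rows given here are thus not matched for level. Of 5016 rows that had fallen (18.8%), 962 (19.2%) fell further, 369 (7.36%) rose, which is close to the share of all rows, and 3685 (73.5%) were not called. Among the 1223 first-day rises of at least 2-fold (4.58% of all rows), 24.9% continued and 18.2% reversed, and among the 1898 such falls (7.12%), 26.3% continued and 7.06% reversed, the last again close to the 7.38% of all rows that rose. Of the 16480 rows without a first-day call, 9.44% changed between days 1 and 3.

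New changes were 756 rises and 799 falls. On the first day their median change was 0.05 for the rises and 0.02 for the falls, and 443 of the 756 rises (58.6%) and 378 of the 799 falls (47.3%) had a first-day difference of the same sign as the later one. Between days 1 and 3 the medians were 0.53 and -0.62. Against leaves in light, 632 of the new rises were higher at day 3 and 656 of the new falls were lower, and the others were not called. Over all rows, 23.4% were higher and 22.0% lower at day 3 than in light. The class rule favours such calls, because these rows changed after day 1 without a called first-day change. The higher share is therefore no separate result. At day 6 the median differences from light were 0.64 and -0.70, close to the values of day 3, 0.60 and -0.63.

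Rows are described one by one where they were called, changed at least 2-fold and had arrays of days 1 and 3 that did not overlap, so their separation is no finding. No measure of background was used here, and a fold that rests on a level under the array medians of 4.26 to 4.32 is that of the deposited values. The 4 largest new rises went up 8.37-fold to 12.6-fold. Row 13458106 had values of 10.02, 10.06 and 9.51 at day 3, against 6.30, 6.08 and 6.25 at day 1. The day 3 arrays all lay more than 3 above the day 1 arrays (change 3.66 ± 0.25 SE, adjusted p = 3.1e-11), after 5.79 ± 0.47 in light (SD, n = 3). Day 6 stood at 9.83 ± 0.15 (SD, n = 3; adjusted p against day 3 = 0.96). Row 13345677 measured 7.12, 6.84 and 7.03 at day 3, against 3.59, 3.36 and 4.04 at day 1, which placed it at percentile 89.0 of all rows at day 3 and at percentile 32.0 at day 1. Its change was 3.33 ± 0.30 (SE, adjusted p = 3.4e-09), and it stood higher again at day 6, at 8.36 ± 0.14 (SD, n = 3; adjusted p against day 3 = 0.0028). Row 13456096 averaged 7.73 ± 0.28 at day 3, against 4.51 ± 0.13 at day 1, and row 13352198 averaged 8.48 ± 0.19 at day 3, against 5.42 ± 0.47 at day 1 (SD, n = 3 each). All 4 had first-day differences of 0.41 to 0.71 that did not pass the test, and the largest adjusted p of their later change was 1.9e-05. Row 13347171, placed among the continued rises, had a first-day change of 0.63 that passed (adjusted p = 0.038). New and continued rows can thus differ by the threshold alone.

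The rows with the 4 largest new falls lay at percentiles 95.6 to 99.9 of all rows at day 1. Row 13418708 had 5.55, 4.95 and 5.94 at day 3, against 10.59, 10.17 and 9.73 at day 1, a 25.6-fold lower level (change -4.68 ± 0.27 SE, adjusted p = 1e-12). Its level in light was 9.58 ± 0.07 and that of day 6 was 4.24 ± 0.37 (SD, n = 3 each). Row 13495603 gave 7.73, 7.43 and 7.92 at day 3, against 11.58, 11.61 and 11.52 at day 1, where it lay at percentile 99.9, and 11.47 ± 0.15 in light (SD, n = 3; adjusted p of the first-day difference = 0.85). It fell by 3.88 between days 1 and 3 (± 0.32 SE, adjusted p = 6.4e-10) and lay lower still at day 6, at 4.99 ± 0.22 (SD, n = 3). Rows 13345959 and 13531040 had means of 4.29 ± 0.36 and 4.85 ± 0.12 at day 3, against 8.02 ± 0.27 and 8.42 ± 0.36 at day 1 (SD, n = 3 each). First-day changes of these 4 rows ran from -0.37 to 0.59, and none passed the test.

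Continued changes held 845 rises and 962 falls, and of the 6 classes their medians lay farthest from light at day 3. The class rule favours this, since their distance from light adds called changes of the same direction. The rises had a median of 0.80 on the first day and 0.62 over the next 2 days, the falls -1.03 and -0.70. The later change was the larger one in 304 of the 845 rises (36.0%) and in 301 of the 962 falls (31.3%). At day 3 the median distance from light was 1.52 for the rises and -1.90 for the falls. At day 6 it was 1.54 and -2.03. Rows of continued falls started bright, with a median level of 7.19 in light, and stood at 5.93, 5.07 and 4.82 at days 1, 3 and 6, whereas continued rises started at 4.95 and stood at 6.04, 6.84 and 6.94.

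The largest rise of the whole comparison was a continued one. Row 13354496 had 9.51, 8.67 and 9.23 at day 3, against 4.38, 4.49 and 4.40 at day 1, a 26.2-fold higher level (change 4.71 ± 0.27 SE, adjusted p = 1e-12). Its first-day rise, from a level in light of 3.56 ± 0.09 (SD, n = 3), was 0.86 (adjusted p = 0.013). Day 6 stood at 9.74 ± 0.06 (SD, n = 3), and the difference between days 6 and 3 did not pass the test (adjusted p = 0.18). Row 13347171 measured 7.96, 7.49 and 7.54 after 3 days, against 4.14, 4.31 and 4.24 after 1 day, and it was higher again at day 6, at 8.93 ± 0.20 (SD, n = 3; 1.27 above day 3, adjusted p = 0.00052). In row 13450877 the replicates spread more, with 9.22, 8.74 and 8.19 after 3 days, against 5.89, 5.39 and 4.82 after 1 day. Row 13364669 reached 8.44 ± 0.31 after 3 days, against 5.23 ± 0.25 after 1 day (SD, n = 3 each). The adjusted p of the later change was at most 7.1e-09 in these 4 rows.

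Row 13527822 showed the largest continued fall. It had 3.40, 3.81 and 3.34 at day 3, against 7.72, 7.94 and 7.04 at day 1, and its change was -4.05 ± 0.23 (SE, adjusted p = 8.4e-13). Its level in light was 8.86 ± 0.11 (SD, n = 3), its first-day change was -1.29 (adjusted p = 4.3e-05), and at day 3 it lay at percentile 23.2 of all rows. Row 13457018 gave 5.86, 5.99 and 5.35 at day 3, against 9.01, 9.45 and 9.09 at day 1. This row fell on the first day by 2.21 (adjusted p = 1.4e-09) and then by 3.45 (adjusted p = 3.8e-12). Row 13416852 averaged 5.58 ± 0.37 at day 3, against 9.39 ± 0.41 at day 1, and row 13414782 averaged 3.61 ± 0.09 at day 3, against 7.10 ± 0.38 at day 1 (SD, n = 3 each).

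**Figure D3:**
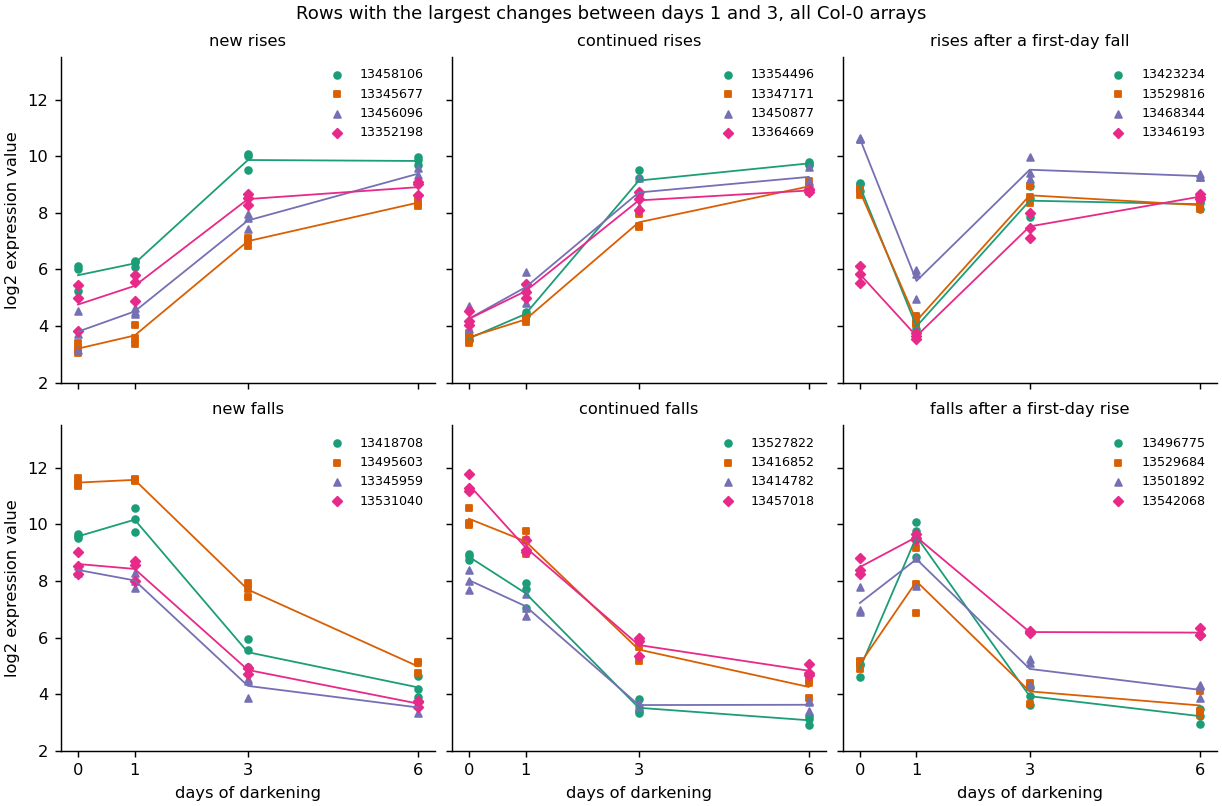
Log2 expression values of the 4 rows with the largest change in each class on all 12 Col-0 arrays, against days of darkening; lines join the means of 3 arrays. Rows were chosen among those whose arrays of days 1 and 3 do not overlap, and the rows that turned back after day 1 had moved by 1.06 to 5.03 on the first day.

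Reversed changes were 369 rises after a first-day fall and 612 falls after a first-day rise. The rises had a median first-day change of -0.79 and a later one of 0.56, which took back a median of 74.0% of the first-day change (quartiles 49.3% and 110%). The falls had 0.82 and -0.69 and took back 89.0% (quartiles 59.9% and 126%). With the 2 changes taken from separate day 1 arrays these medians were 67.4% to 72.8% and 80.3% to 83.6%. The class rule favours large shares taken back, since a row enters only if its opposite change was called. Most reversed rows were no longer called against light at day 3, at 203 of the 369 rises and 346 of the 612 falls. A further 139 rises were still below light and 175 falls still above it. Passing beyond the level in light was the least frequent outcome, in 27 of the rises (7.32%) and 91 of the falls (14.9%).

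Row 13423234 had 8.51, 7.84 and 8.93 at day 3, against 3.89, 3.71 and 4.35 at day 1. Between them lay a 21.8-fold rise (change 4.44 ± 0.31 SE, adjusted p = 4.1e-11) after a first-day fall by 4.96 (adjusted p = 3e-13). In light it measured 8.95 ± 0.16, and after 6 days of cover 8.30 ± 0.14 (SD, n = 3 each), so of the 4 Col-0 groups day 1 was the low one. Row 13529816 gave 8.55, 8.36 and 8.94 at day 3, against 4.36, 4.06 and 4.12 at day 1, with 8.76 ± 0.12 in light (SD, n = 3). Neither row was called at day 3 against light (adjusted p = 0.19 and 0.79). Row 13468344 came back less far, to 9.52 ± 0.40 at day 3, against 5.59 ± 0.54 at day 1, and it was still called below its level in light of 10.62 ± 0.02 (SD, n = 3 each; adjusted p = 0.028). Row 13346193 went beyond it. It had 7.45, 7.99 and 7.11 after 3 days, against 3.75, 3.63 and 3.55 after 1 day, stood 1.68 above light at day 3 (adjusted p = 3.8e-06) and lay at 8.57 ± 0.08 at day 6 (SD, n = 3). The largest adjusted p of the later change among these 4 rows was 3.5e-08.

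The largest difference between the deposited values of these days was a fall that followed a first-day rise. Row 13496775 had 3.61, 3.92 and 4.25 at day 3, against 9.78, 10.07 and 8.84 at day 1, 49.7-fold lower in the deposited values, with day 3 at percentile 42.5 of all rows (change -5.64 ± 0.32 SE, adjusted p = 6.1e-13). It had risen by 4.66 on the first day from 4.90 ± 0.26 in light (SD, n = 3; adjusted p = 1.1e-12), and day 3 minus light was -0.97 (adjusted p = 0.013). Day 1 replicates were widely spread in row 13529684, with 3.64, 4.39 and 4.26 at day 3, against 7.89, 9.18 and 6.88 at day 1. They were also spread in row 13501892, which had 5.23, 4.33 and 5.11 at day 3, against 9.68, 8.81 and 7.81 at day 1. The falls of these rows were 3.89 and 3.88 (adjusted p = 7.1e-09 and 1.6e-06). Row 13542068 was tight by comparison, at 6.24, 6.16 and 6.18 after 3 days, against 9.46, 9.53 and 9.66 after 1 day (change -3.36 ± 0.22 SE, adjusted p = 1.4e-11). All 4 of these rows lay below their level in light at day 3, with differences between -2.33 and -0.97, and all 4 of those differences passed the test.

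The arrays of day 6 and of light enter neither side of the day 3 against day 1 test. Their difference also holds the first-day change, so it is no separate test of the later change. Of the 1970 rises, 1474 (74.8%) were higher at day 6 than in light and 136 (6.90%) were lower. Over all rows these shares were 23.3% and 22.6%. Of the 2373 falls, 1738 (73.2%) were lower at day 6 than in light and 174 (7.33%) were higher. The classes differed in this. The median difference of day 6 from light was 1.54 in continued rises, 0.64 in new rises and -0.12 in rises after a first-day fall. It was -2.03 in continued falls, -0.70 in new falls and 0.01 in falls after a first-day rise.

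The same days in pif5 leaves gave fewer calls. The pif5 arrays stand on neither side of the Col-0 contrast, but all arrays share 1 estimate of the spread. In pif5, 844 rows were higher and 1080 lower at day 3 than at day 1, 3.16% and 4.05% of all rows, and 5% of rows lay at or below -0.44 and 5% at or above 0.39. Of the 1970 Col-0 rises, 297 (15.1%) were also called higher in pif5 and 48 (2.44%) lower. Of the 2373 Col-0 falls, 498 (21.0%) were called lower and 44 (1.85%) higher. The median pif5 change was 0.09 in the Col-0 rises and -0.20 in the Col-0 falls. Choosing rows on Col-0 favours the larger change there. Chosen on pif5 instead, its 844 rises had a median of 0.61 in pif5 and 0.26 in Col-0, and its 1080 falls -0.60 and -0.35. The correlation of the Col-0 with the pif5 change was 0.37 across the 26676 rows, which are not independent replicates.

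The first-day step of the reversed changes was often called in pif5 as well. Of the 369 rows that fell and then rose in Col-0, 277 (75.1%) were called lower on the first day in pif5 too, against 18.4% of all rows. At day 3 against day 1, 89 of the 369 (24.1%) were called higher in pif5, against 3.16% of all rows. Of the 612 rows that rose and then fell in Col-0, 381 (62.3%) were called higher on the first day in pif5, against 16.7% of all rows. At day 3 against day 1, 165 of the 612 (27.0%) were called lower in pif5, against 4.05% of all rows. Of the 756 new rises, 127 (16.8%) were called higher and 34 (4.50%) lower on the first day in pif5. Of the 799 new falls, 46 (5.76%) were called higher and 203 (25.4%) lower. Over all rows 16.7% were called higher and 18.4% lower, and the 16.8% of new rises is close to the first of these. But the shares of all rows include the 38.2% of rows called on the first day in Col-0. The new classes leave those rows out by rule, so the shares are no matched base, and a matched one was not computed. Continued changes had mostly been called on the first day in pif5 as well. In the same direction as in Col-0 these were 688 of 845 rises (81.4%) and 892 of 962 falls (92.7%), against 16.7% and 18.4% of all rows. At day 3 against day 1, 127 of the 845 rises (15.0%) were called higher in pif5, against 3.16% of all rows. Of the 962 falls, 209 (21.7%) were called lower, against 4.05% of all rows. Each step was counted on its own over the whole class, and rows called in pif5 at both steps were not counted.

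**Figure D4:**
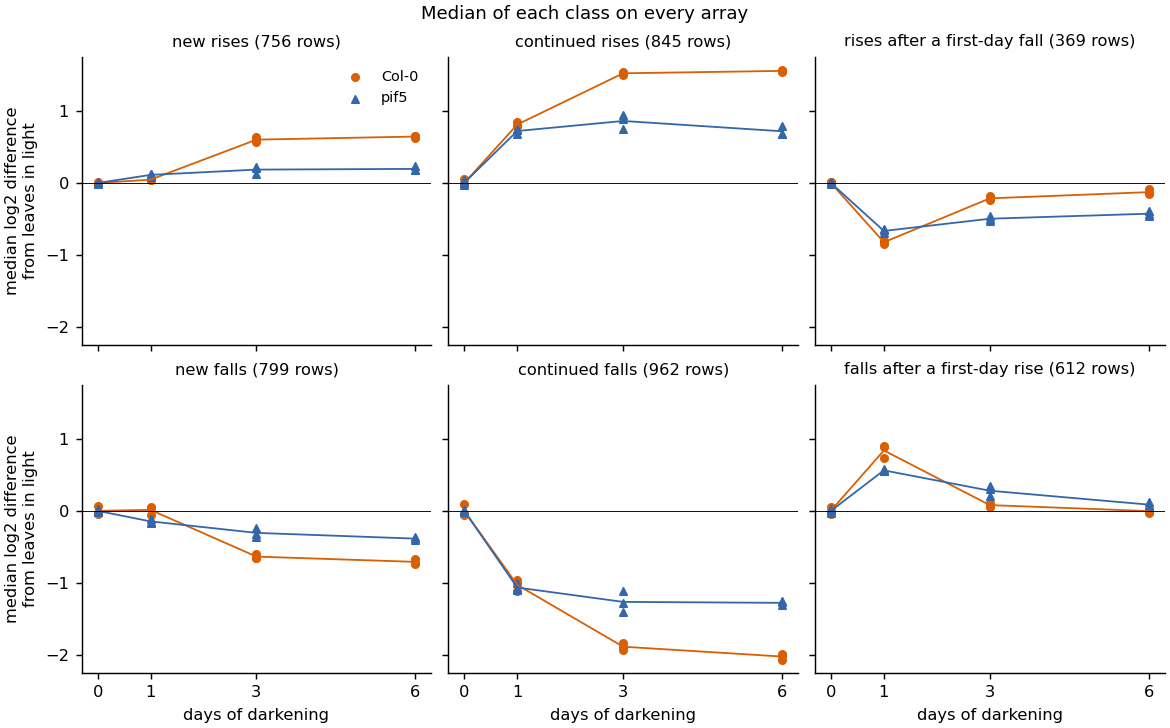
Median log2 difference from leaves in light of the same genotype for the rows of each class, on every array of Col-0 (circles) and pif5 (triangles), against days of darkening; lines join the means of 3 arrays. Rows were placed in classes on the Col-0 arrays of days 0, 1 and 3. In continued falls the Col-0 arrays of day 3 lie at -1.94 to -1.84 and the pif5 arrays at -1.41 to -1.11.

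The test of the difference itself, Col-0 change minus pif5 change, called 1992 rows, 7.47% of all. The change was more positive in Col-0 at 952 (3.57%) and more negative at 1040 (3.90%), and 782 differences (2.93%) were at least 2-fold. Of the 1992 rows, 1286 were called between these days in Col-0 and not in pif5, 307 in pif5 and not in Col-0, and 140 in both in the same direction. A further 92 were called in both in opposite directions and 167 in neither. The balance depended on the scaling here too, with 47.8% more positive in Col-0 as deposited, 44.8% with quantile normalization and 55.0% with arrays centred on their medians. Among pif5 day 3 arrays, replicate 1 lay nearest to day 1: in continued falls the class medians against light were -1.11, -1.28 and -1.41 in replicates 1, 2 and 3, after -1.09, -1.10 and -1.01 at day 1. Without that array 1440 rows were called.

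Of the 24 rows described one by one, 23 passed the test of the difference, each with the larger change in Col-0, where they had been chosen. Among rows whose Col-0 change was called as well, the 3 differences most positive in Col-0 were in rows 13354496, 13345677 and 13347171. Row 13354496 changed by 4.71 in Col-0, where it was called, and by 0.56 in pif5 (± 0.27 SE each; adjusted p of the pif5 change = 0.27), and the difference was 4.15 ± 0.39 (SE, adjusted p = 1.8e-07). In pif5 it averaged 4.95 ± 0.46 after 3 days, against 4.39 ± 0.45 after 1 day (SD, n = 3 each). The pif5 means of row 13345677 were 3.87 ± 0.22 after 3 days and 3.54 ± 0.11 after 1 day (SD, n = 3 each), and day 6 averaged 8.36 in Col-0 and 3.99 in pif5. The difference was 3.01 ± 0.43 (SE, adjusted p = 3.5e-05).

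Under the same condition, the 3 differences most negative in Col-0 were in rows 13496775, 13414782 and 13501892. For row 13496775 the day 1 mean was 9.56 ± 0.64 in Col-0, against 7.90 ± 0.58 for pif5 (SD, n = 3 each), and the later change was -5.64 in Col-0 and -1.97 in pif5 (difference -3.67 ± 0.45 SE, adjusted p = 5.1e-06). Row 13414782 stood at 6.66 ± 0.69 in pif5 after 3 days, against 6.59 ± 0.32 after 1 day (SD, n = 3 each), a change of 0.07, and the difference was -3.56 ± 0.33 (SE, adjusted p = 1.8e-07). Its first-day change was -0.92 in Col-0 and -1.55 in pif5. Row 13501892 had no called change in pif5 on the first day, and its pif5 arrays of day 3 had an SD of 1.52 (difference -3.53 ± 0.71 SE, adjusted p = 0.0018). Row 13529684 was the one row of the 24 whose difference did not pass: its change was -3.89 in Col-0 and -2.72 in pif5 (difference -1.17 ± 0.52 SE, adjusted p = 0.19), and without Col-0 day 1 replicate 3 the difference was -1.72 and passed (adjusted p = 0.017). Over its other alternatives the adjusted p ran from 0.11 to 0.54. The differences of rows 13456096 and 13468344 passed here (adjusted p = 0.044 and 0.029) and did not in 12 and 8 alternatives, with adjusted p from 0.0021 to 0.15 and from 0.0028 to 0.10.

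**Figure D5:**
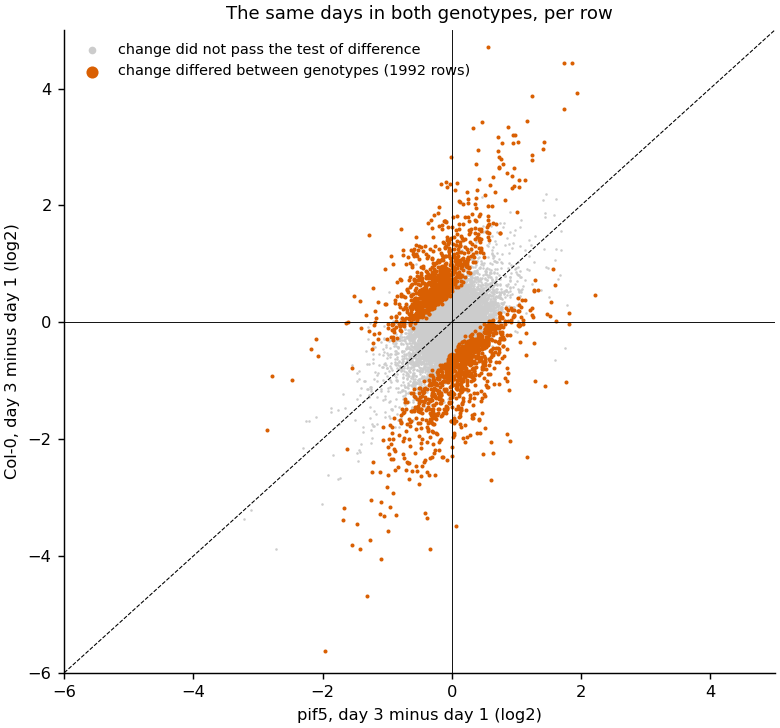
Each point is 1 row: the log2 change from day 1 to day 3 in Col-0 on the vertical axis and in pif5 on the horizontal axis, from separate arrays. The dashed line marks equal change, and the 1992 coloured rows passed the test of the difference between the genotypes; 5% of rows lie at or below -0.62 in Col-0 and -0.44 in pif5.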

How the data were processed

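Per the labels, biotin-labelled cRNA from leaf RNA was hybridised to 1-colour arrays. The deposited values are log2 expression values per probe set, summarised by the authors. The submitters' processing notes name the package oligo, and for background correction, normalization and summarisation no setting is given in the sources used here. Array medians lay between 4.26 and 4.27 at Col-0 day 3 and between 4.31 and 4.32 at day 1, and no further scaling was applied. Precision is limited by the number of arrays.

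All 26676 rows were tested without a filter with limma 3.58.1 under R 4.3.3 (1 linear model with empirical Bayes variances over all 26 arrays and 9 groups, 17 residual degrees of freedom). Benjamini-Hochberg adjustment ran over all rows, with a threshold of 0.05. The fit was tested on simulated data. The code of the class rule was checked only on made-up cases with preset changes and adjusted p-values. Per class, up to 4 rows with the largest change between days 1 and 3 were described, among those called, changed at least 2-fold and with arrays of the days not overlapping. For the genotypes, up to 3 rows per direction with the largest difference were described. They were taken among rows called for the difference whose Col-0 change was also called. The comparison, its classes and the gene lists were chosen with earlier results of these data known.

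The platform annotation lists 1 gene for 16179 rows, several for 588 and none for 9909, and 16067 were matched to a TAIR10.1 locus. Median percentiles in light were 66.1 for 10 photosynthesis rows, 66.9 for 2 dark-inducible, 33.3 for 1 chlorophyll breakdown, 56.4 for 4 senescence and 11.5 for 9 autophagy rows; seed and flower genes had 0 rows, so the check on low rows is void. Labels give groups the same replicate numbers. Alternatives were other scalings, a filter on dim rows, smaller fits, eBayes with trend and robust, the replicate number as a block, each replicate left out and separate day 1 arrays for the 2 tests.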

Additional observations from a re-analysis of the deposited data

Results flagged for a closer look

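The change between days 1 and 3 differed between Col-0 and pif5 at 1992 rows in the limma test of the Col-0 change minus the pif5 change. Of the rows described above, 23 were among them. They had been chosen for a large change in Col-0, which favours a difference in that direction, so their shared direction is no separate result.

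Differences are given as the Col-0 change minus the pif5 change on the log2 scale. Among new rises they were 1.91 in row 13458106, 3.01 in row 13345677, 2.26 in row 13456096 and 2.12 in row 13352198. New falls gave -3.36 in row 13418708, -2.47 in row 13495603, -2.47 in row 13345959 and -2.59 in row 13531040. Continued rises had 4.15 in row 13354496, 2.97 in row 13347171, 2.49 in row 13450877 and 2.23 in row 13364669. For continued falls the values were -2.96 in row 13527822, -2.27 in row 13416852, -3.56 in row 13414782 and -1.98 in row 13457018. In rises after a first-day fall they were 2.70 in row 13423234, 2.57 in row 13529816, 2.00 in row 13468344 and 2.63 in row 13346193. In falls after a first-day rise they were -3.67 in row 13496775, -3.53 in row 13501892 and -2.97 in row 13542068. The pif5 day 3 arrays had SDs of 1.38 in row 13456096, 1.31 in row 13495603 and 1.52 in row 13501892, above those of the other 20.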

How the results depend on the processing

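All 24 rows kept the direction and the call of their change between days 1 and 3 under every alternative in which they were tested. Calls numbered 3696 to 4641 over the alternative scalings, filter, fits and block, and 3374 to 3971 with 1 Col-0 array of these days left out. With 1 Col-0 array of days 0, 1 or 3 left out, new rises numbered 526 to 837, new falls 602 to 880, continued rises 625 to 791, continued falls 774 to 944, reversed rises 289 to 356 and reversed falls 466 to 637. The genotype difference numbered 1440 to 2148 with 1 array of days 1 or 3 of either genotype left out. Taking the first-day change from day 1 array 1 alone gave 561 continued rises, 219 reversed rises and 379 reversed falls, from array 2 alone 217 and 373 reversed rises and falls, and from array 3 alone 244 and 358. In these 3 fits no continued row became reversed or the other way round, and 170, 182 and 264 reversed rows became new. Where a first-day change also had to be at least 2-fold, new rises and falls numbered 1532 and 1651, continued 304 and 500 and reversed 134 and 222, since fewer rows then had a first-day change. Same-numbered arrays of Col-0 days 1 and 3 had deviations from their group means that correlated at 0.01 to 0.17, and differently numbered ones at -0.11 to 0.05. Over 5 groups the ranges were -0.09 to 0.19 and -0.18 to 0.13. The numbers were not taken as pairs in the main fit. With the replicate block 4508 rows were called between days 1 and 3, and 2106 for the genotype difference. The genotype difference of row 13456096 was 1.74 to 2.42 and did not pass in 12 alternatives, and that of row 13468344 was 1.69 to 2.00 and did not pass in 8; the cause was not tested. Dim rows were called less often, and whether a low signal limited what could be called was not tested.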
